A study of Homo sapiens with 4 samples.

Results

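DMSO peaks away from AKBA peaks are places where the peak list of the DMSO library holds H3K27me3 and the peak list of the AKBA library holds nothing for more than 10 kb on either side. H3K27me3 is histone H3 trimethylated at lysine 27. It was mapped by ChIP-seq, the sequencing of DNA pulled down with an antibody to the mark, in HaCaT, an immortalised human keratinocyte line. The culture medium contained AKBA or the solvent DMSO for 12 hours. AKBA usually denotes an acetylated boswellic acid from frankincense; the labels use the short form alone and state no dose. Each condition had 1 H3K27me3 library with a peak list, and its input DNA had no values used here. The peaks were chosen by position and width: a DMSO peak under 5000 bp that overlaps no AKBA peak and lies more than 10 kb from the nearest AKBA peak edge. Of the DMSO peaks, 45.5% overlapped no AKBA peak. The full rule gave 1800 of the 8890 DMSO peaks, or 20.2% with an exact 95% binomial interval of 19.4 to 21.1%, out of 22045 peaks in both lists together. No replicate culture exists, so no difference is tested against culture-to-culture variation and no p-value is given. Intervals cover counting error only and treat peaks as independent. Sequencing depth is unknown, and a place outside the AKBA list was not called there but may still carry the mark.

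H3K27me3 is written by Polycomb repressive complex 2, whose catalytic subunit is EZH2 or EZH1, and is removed by demethylases of the KDM6 family. It is bound by other Polycomb proteins, spreads into wide domains over silent developmental genes, and is lost or gained as cells change identity. In mouse epidermis, EZH2 in basal progenitor cells keeps late differentiation genes silent. Coordinates are those of hg19, and no gene is assigned to them because an hg19 annotation was not used here.

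The 1800 peaks were narrow. Their median width was 333 bp, with quartiles of 188 and 558 bp, and together they covered 736 kb, which was 9.73% of the bases in the DMSO list. The widest measured 2402 bp, so the width limit of 5000 bp removed nothing: all 70 DMSO peaks of that width overlapped an AKBA peak. The remaining DMSO peaks fall into 2 classes. There were 2241 peaks without overlap but within 10 kb of an AKBA peak, with a median width of 368 bp, and 4849 peaks that overlapped an AKBA peak, with a median width of 847 bp. DMSO peaks away from AKBA peaks were thus close in width to the other peaks without overlap and narrower than the overlapping ones. Only 57 of the 1800 (3.17%) reached 1 kb, against 96 of the 2241 (4.28%) and 2090 of the 4849 (43.1%). Peaks at 160 bp, the narrowest width in the DMSO list, numbered 294 of the 1800 (16.3%, interval 14.7 to 18.1%), against 13.7% of the peaks beside AKBA peaks and 3.32% of the overlapping peaks. That width made up 8.58% of the whole list. Read the other way, 38.5% of all DMSO peaks at 160 bp lay away from AKBA peaks, and 2.54% of those of 1000 bp and over. Of the 763 DMSO peaks at 160 bp, 308 lay beside AKBA peaks, more than the 294 away from them.

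**Figure D1:**
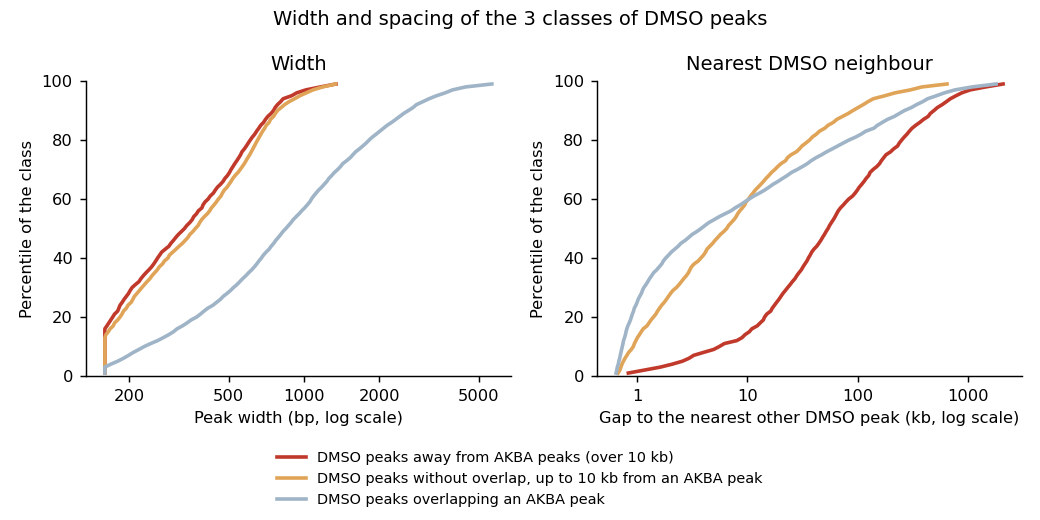
Width (left, bp, log scale) and gap to the nearest other DMSO peak (right, kb, log scale) against the percentile within each class of DMSO peaks, with 1 line per class. Peaks away from AKBA peaks (red) nearly follow the peaks beside AKBA peaks in width, with medians of 333 and 368 bp, and stand apart from both other classes in spacing, with a median gap of 53.6 kb.

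Column 5 of the list is the authors' own score per peak, whose scale the file does not state, and it was read only as a rank within the DMSO list, where rank 1 is the highest score. DMSO peaks away from AKBA peaks ranked low as a group. Their median rank was 5860 of 8890 (binomial interval of the median 5682 to 6016), and 1223 of them (67.9%, interval 65.7 to 70.1%) ranked below the median of the list. The median rank of peaks beside AKBA peaks was 5720 (5558 to 5884), and that of overlapping peaks was 3291 (3185 to 3393). The share of peaks away from AKBA peaks was 34.1% in the lowest score decile (interval 31.0 to 37.3%) and 6.75% in the highest (5.19 to 8.60%), and between these it fell with rising score, apart from the eighth decile from the top, at 24.2%, which lay below the seventh, at 25.3%. Peaks beside AKBA peaks took 39.6% of the lowest decile and 9.45% of the highest. DMSO peaks away from AKBA peaks nevertheless spanned the whole score range. The best of them held rank 1 and the lowest shared rank 8885.5, that of the lowest score in the list. The score of a peak and the AKBA call at its position come from different libraries, but the class itself is made of peak calls, so the ranks are a description.

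**Figure D2:**
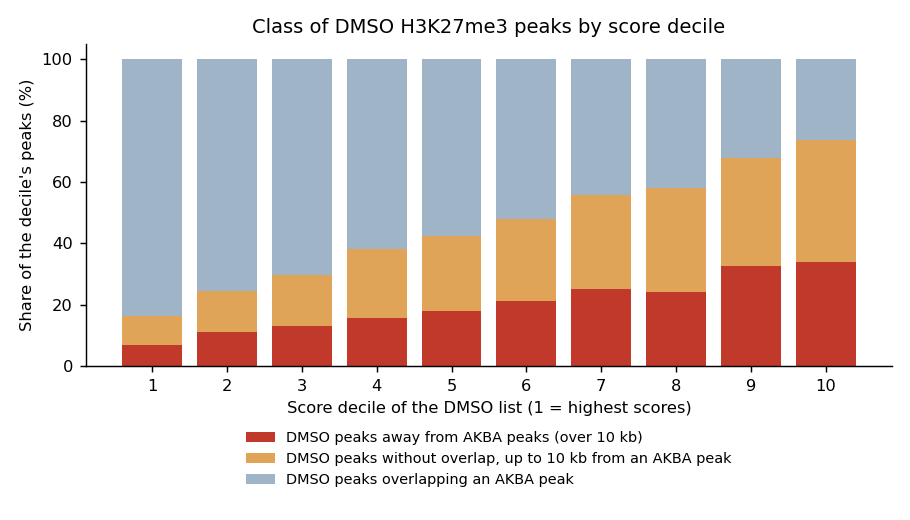
Share of DMSO peaks in each class (vertical axis, %) by score decile of the DMSO list (horizontal axis, 1 = highest scores), stacked to 100%. The red part, peaks away from AKBA peaks, takes 6.75% of the highest decile and 34.1% of the lowest.

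Score and width were not related in 1 direction among these peaks. Spearman's rho between width and score was -0.34 over the 1800 peaks and -0.26 over the 2241 beside AKBA peaks, against 0.35 over the 4849 overlapping peaks. These values are across peaks of 1 library, which are not independent replicates. By width, the median rank of peaks away from AKBA peaks was 4336 at 160 bp, 3947 from 161 to 249 bp, 7034 from 250 to 499 bp, 6515 from 500 to 999 bp and 5694 at 1000 bp and over. Peaks under 250 bp therefore held better ranks than wider ones, the best being those just above the narrowest width, while from 250 bp upwards the median rank improved with width. The step at 250 bp was not particular to them. From 161 to 249 bp and from 250 to 499 bp, the median ranks were 3980.5 and 6605 beside AKBA peaks and 3234 and 4953 among overlapping peaks. At 1000 bp and over they were 5391.5 beside AKBA peaks and 2262 among overlapping peaks. In the top score decile, which takes in 10% of the list, there were 60 peaks away from AKBA peaks, 3.33% of the 1800 (interval 2.55 to 4.27%). Their median width was 192.5 bp, and 48 of the 60 were under 300 bp wide. The 84 peaks beside AKBA peaks in that decile had a median width of 193 bp. Of the 745 overlapping peaks there, 90 were under 300 bp, and their median width was 1428 bp. A top score thus belonged mostly to short peaks among those without overlap and to wide peaks among those with it.

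The 10 highest-scoring peaks away from AKBA peaks held ranks between 1 and 131. On chromosome 1 the peak at 121484395 to 121485467 had a score of 18.7 and rank 1, and another DMSO peak of the same kind lay 5.59 kb from it. On chromosome 7 the peak from 61968844 to 61969608 had a score of 13.6 and rank 3, with a like neighbour at 0.653 kb. After these the scores dropped to less than 7. Ranks 66, 111 and 128 were held by 3 peaks of chromosome 11, which started at 17373986, 60568777 and 93063556, ended at 17374164, 60568991 and 93064134, and scored 6.74, 6.25 and 6.16. Chromosome 2 held 2 of the 10, at rank 119 from 92281199 to 92281443 and at rank 125 from 176893843 to 176894014. The last of these, 172 bp wide, lay 37.9 kb from the nearest AKBA peak in a well-marked neighbourhood, with 27 AKBA peaks and 17 other DMSO peaks within 1 Mb. Rank 70 was on chromosome 13 (24121201 to 24121520), rank 118 on chromosome 6 (166682226 to 166683012) and rank 131 on chromosome 15 (38159526 to 38159685). The 10 peaks were 160 to 1073 bp wide.

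The 5 widest peaks were not those with the best scores. The widest, on chromosome 18 from 18518019 to 18520420, measured 2402 bp and ranked 2241. It lay 1.15 Mb from the nearest AKBA peak, and 0.724 kb from another DMSO peak away from AKBA peaks. The next, on chromosome 17 from 72518686 to 72520838, measured 2153 bp and ranked 6499, in a neighbourhood with 69 AKBA peaks within 1 Mb. The others measured 1678 bp on chromosome 14 (24878041 to 24879718), 1659 bp on chromosome 11 (61048647 to 61050305) and 1584 bp on chromosome 22 (19016573 to 19018156). Their ranks were 5143, 8576 and 3905, so 3 of the 5 widest ranked in the lower part of the list.

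Most of the peaks were not far from AKBA-marked sequence. The median distance to the nearest AKBA peak was 40.4 kb, with quartiles of 20.3 and 115 kb. The nearest AKBA peak was 10 to 20 kb away for 438 peaks (24.3%), 20 to 50 kb for 584 (32.4%), 50 to 100 kb for 280 (15.6%), 100 to 500 kb for 383 (21.3%), 500 to 1000 kb for 75 (4.17%) and over 1 Mb for 40 (2.22%). Within 1 Mb of such a peak there were a median of 13 AKBA peaks and 8 other DMSO peaks, against 26 and 16 around DMSO peaks beside AKBA peaks and 19 and 13 around overlapping ones. Their surroundings were thus more sparsely marked in both lists, which the distance limit partly fixes for AKBA peaks. Set against the sequence available at each distance, DMSO peaks without overlap thinned out steadily. Between the outermost AKBA peaks of the chromosomes, there were 3.43 peaks per Mb of sequence lying 10 to 20 kb from an AKBA peak (438 peaks in 128 Mb, Poisson interval 3.12 to 3.77). The density was 2.11 per Mb at 20 to 50 kb, 0.863 at 50 to 100 kb, 0.348 at 100 to 500 kb, 0.170 at 500 to 1000 kb and 0.0848 beyond 1 Mb (interval 0.0606 to 0.115). Within 10 kb of an AKBA peak it was 12.3 per Mb (11.8 to 12.8). The density was thus lower in each band than in the band before it. Sequence without assembled bases counts as available here, and how much of it falls in each band was not examined.

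**Figure D3:**
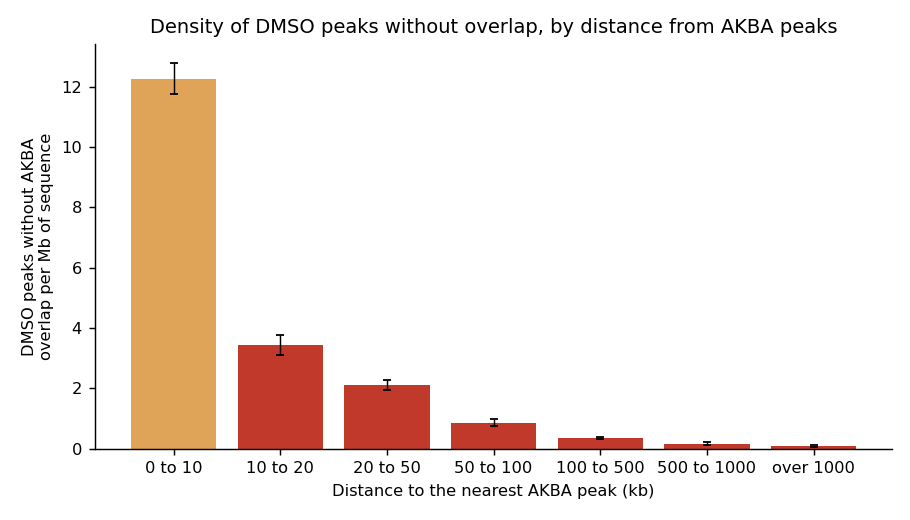
DMSO peaks without AKBA overlap per Mb of sequence (vertical axis) by distance of that sequence from the nearest AKBA peak (horizontal axis, kb), with exact 95% Poisson intervals that cover counting error only. Red bars are peaks away from AKBA peaks, and the yellow bar at 0 to 10 kb, at 12.3 per Mb, is peaks beside them. The density declines to 0.0848 per Mb beyond 1 Mb.

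Score rank showed no steady trend with distance up to 1 Mb. The median rank was 6094 at 10 to 20 kb, 5804 at 20 to 50 kb, 5940 at 50 to 100 kb, 5682 at 100 to 500 kb and 6661 at 500 to 1000 kb, and the median widths of these bands lay between 301 and 356 bp. The share in the top score decile was 1.60% at 10 to 20 kb and between 3.57 and 4.0% in the 4 bands from 20 kb to 1 Mb. The 40 peaks beyond 1 Mb had a median rank of 4618 and a median width of 269.5 bp, and 4 of them were in the top score decile (10%, interval 2.79 to 23.7%). At the 10 kb limit itself, the 3 nearest peaks inside it lay 10.012, 10.014 and 10.028 kb from an AKBA peak, with scores of 2.47, 2.35 and 2.20. The 3 nearest peaks left out lay at 9.986, 9.962 and 9.958 kb, with scores of 5.47, 2.43 and 2.56.

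The 5 farthest peaks were on 3 chromosomes. Chromosome X held 3, from 61839175 to 61839443 at 4.92 Mb from an AKBA peak, from 58561281 to 58561550 at 3.61 Mb, and from 77359454 to 77359686 at 2.62 Mb. Chromosome 11 held the peak at 51579485 to 51579749, 3.96 Mb away, and chromosome 10 that at 39138041 to 39138301, 2.78 Mb away. They were alike in size, 233 to 270 bp, and had neither an AKBA peak nor another DMSO peak within 1 Mb. Their ranks were 682, 356, 857, 1034 and 4604 in the order given, so 3 of the 5 were in the top score decile.

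Some of the peaks stood beside long stretches with no peak in either list, as sequence next to an unassembled centromere does by general knowledge of the build. There were 107 stretches of at least 3 Mb inside chromosomes, on 22 chromosomes, and 68 of them had a DMSO peak away from AKBA peaks within 1 Mb. These peaks numbered 120, or 6.67% of the 1800 (interval 5.56 to 7.92%), against 3.44% of the peaks beside AKBA peaks (2.72 to 4.28%), 6.33% of the overlapping peaks (5.66 to 7.05%) and 5.67% of the whole list. As a group they were therefore near the share of the list. With stretches of at least 2 Mb the share was 14.2% (interval 12.6 to 15.9%), against 12.9% of the whole list. Among peaks with scores of at least 3.00 it was 11.2% (8.77 to 14.0%), against 7.75% of all DMSO peaks with such scores. For that setting the stretches were drawn anew after DMSO peaks of lower score were dropped. They can contain such dropped peaks and are not the 107 stretches above. The 120 ranked higher than the other 1680, with a median rank of 4647 against 5947, and were narrower, with a median of 262 against 339.5 bp. In the top score decile there were 10 of the 120 (8.33%, interval 4.07 to 14.8%) and 50 of the 1680 (2.98%). All 5 of the farthest peaks stood beside such a stretch, as did the widest peak and 22 of the 40 beyond 1 Mb. The same held for 3 of the 10 highest-scoring, namely those on chromosomes 1 and 7 with ranks 1 and 3 and that on chromosome 2 with rank 119. Which of the stretches hold a centromere was not examined. Being far from AKBA peaks and being beside a long stretch without peaks overlap by construction. The part that the position beside such a stretch has in the high scores was not tested.

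**Figure D4:**
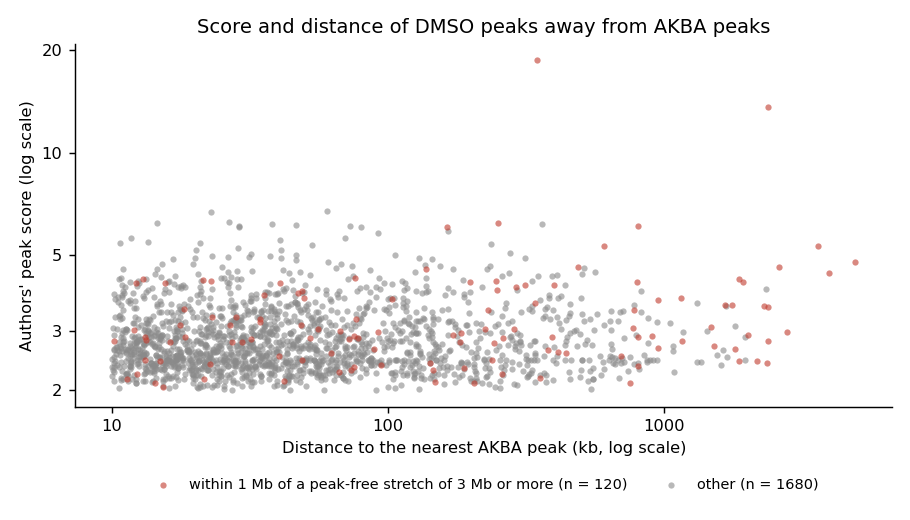
Each of the 1800 DMSO peaks away from AKBA peaks by its distance to the nearest AKBA peak (horizontal axis, kb, log scale) and the authors' score (vertical axis, log scale). The 120 peaks within 1 Mb of a stretch of at least 3 Mb without peaks are red and the other 1680 grey. The points at scores of 18.7 and 13.6 are both red, as are the farthest points.

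The peaks were found on every one of the 23 chromosomes with peaks, from 6 on chromosome 21 to 141 on chromosome 1. As a share of a chromosome's DMSO peaks they were most frequent on chromosome 5, with 113 of 398 (28.4%, interval 24.0 to 33.1%), chromosome 3, with 99 of 373 (26.5%, 22.1 to 31.3%), and chromosome 8, with 93 of 384 (24.2%, 20.02 to 28.8%). They were least frequent on chromosome 20, with 55 of 483 (11.4%, 8.69 to 14.6%), chromosome 4, with 25 of 215 (11.6%, 7.67 to 16.7%), and chromosome 21, with 6 of 50 (12.0%, 4.53 to 24.3%). For 18 of the 23 chromosomes the interval included the share of the whole list, it lay above for chromosomes 3 and 5, and it lay below for chromosomes 4, 20 and X, without adjustment for the 23 intervals. Low shares came from unlike chromosomes, and their source was not tested. DMSO peaks of all classes numbered 7.69 per Mb of span on chromosome 20 and 1.13 on chromosome 4. Chromosome 20 had 11.7 AKBA peaks per Mb of its span, so that 85.6% of the sequence between its AKBA peaks lay more than 10 kb from one, against 98.0% on chromosome 4, which had 1.42 AKBA peaks per Mb. Counted per Mb of such sequence, chromosome 20 held 1.04 peaks away from AKBA peaks, above the 0.657 of all chromosomes together, and chromosome 4 held 0.134. The density was greatest on chromosome 15, at 1.28 per Mb, and least on chromosome X, at 0.103 per Mb, where 8 of the 15 peaks stood beside a stretch of at least 3 Mb without peaks.

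**Figure D5:**
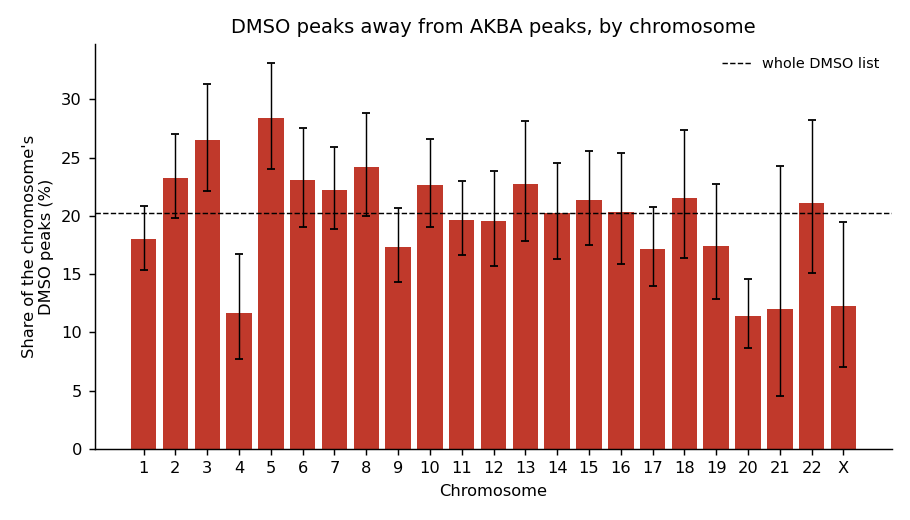
Share of each chromosome's DMSO peaks that lie away from AKBA peaks (vertical axis, %), with exact 95% binomial intervals as bars. The dashed line is the share in the whole DMSO list, 20.2%, and chromosomes 3 and 5 lie above it and 4, 20 and X below it by their intervals.

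Near the outermost peaks of the chromosomes, DMSO peaks away from AKBA peaks were sparse relative to the other DMSO peaks. The outermost peaks of both lists were used as the reference, and they need not lie near the chromosome ends. The distance limit leaves out peaks close to AKBA peaks, and its part in this difference was not tested. Within 5 Mb of the first or last peak of a chromosome lay 261 of the 1800 (14.5%, interval 12.9 to 16.2%), against 590 of the 2241 beside AKBA peaks (26.3%, 24.5 to 28.2%) and 1075 of the 4849 overlapping peaks (22.2%, 21.0 to 23.4%).

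DMSO peaks away from AKBA peaks stood farther from other DMSO peaks than those of either other class did. The gap to the nearest other DMSO peak of any class had a median of 53.6 kb, against 6.49 kb for DMSO peaks beside AKBA peaks and 3.804 kb for overlapping peaks. Another DMSO peak lay within 10 kb for 263 of the 1800 (14.6%, interval 13.0 to 16.3%), against 59.5% of each other class. The distance limit forbids AKBA peaks nearby and so keeps away the overlapping DMSO peaks, which makes part of this spacing a consequence of the choice. The nearest DMSO neighbour was an overlapping peak in 728 cases (40.4%), another peak away from AKBA peaks in 692 (38.4%), and a peak beside AKBA peaks in 380 (21.1%). In the whole DMSO list these classes made up 54.5%, 20.2% and 25.2%. A peak away from AKBA peaks was the nearest neighbour of 11.2% of the peaks beside AKBA peaks and 11.5% of the overlapping peaks. DMSO peaks close to each other have similar distances to AKBA peaks, so the distance limit partly fixes the class of the nearest neighbour too. How large that part is was not tested. Following the DMSO list along the chromosomes, 746 of the 1800 (41.4%) had no peak of their own kind as a direct neighbour, and the rest stood in runs of 2 to 9. The runs were not set against random placement. The run of 9, on chromosome 8 between 122455610 and 131603454, was spread over 9.15 Mb, with scores of 2.30 to 3.73. The run of 8, on chromosome 9 between 86235916 and 88078572, took 1.84 Mb, with scores of 2.31 to 3.62. Shorter runs could be denser: of the runs of 6, that on chromosome 10 between 50181062 and 50484151 took 0.303 Mb and that on chromosome 12 between 114105556 and 114656685 took 0.551 Mb.

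Joined across gaps of up to 100 kb, 596 of the peaks (33.1%, interval 30.9 to 35.3%) formed 255 clusters and 1204 stood alone. The clustered share depended on the joining distance, with 22.8% at 50 kb and 52.3% at 250 kb. There were 191 clusters of 2 peaks, 47 of 3, 13 of 4, 3 of 5 and 1 of 6, on 21 chromosomes, and their median span was 39.0 kb. No other DMSO peak lay inside 212 of the clusters, and no AKBA peak inside 183. The distance limit keeps AKBA peaks out of short gaps between the peaks of a cluster, so part of the 183 follows from the choice. Clustered peaks had a median rank of 5624 and single peaks 5961, with median widths of 308.5 and 340.5 bp. The top score decile held 25 of the clustered (4.19%) and 35 of the single peaks (2.91%). At 100 kb most clusters were thus pairs.

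The 5 clusters with the most peaks were of unlike kinds. The fifth is 1 of 13 clusters of 4, taken because its summed score was the highest among them, so its high score is part of the choice. The cluster of 6 lay on chromosome 11 from 1646759 to 1749294. Its first 4 peaks fell within 10 kb of each other, with scores of 5.16, 2.70, 4.61 and 2.40 in order of position, and the last 2 scored 3.54 and 2.69. The span also held 4 AKBA peaks, all at least 14.6 kb from the nearest peak of the cluster. On chromosome 2 a cluster of 5 from 92275821 to 92320257 had scores of 4.20, 6.20, 2.85, 3.04 and 4.03, no AKBA peak inside, and the nearest AKBA peak 245 to 290 kb from its peaks. It stood beside a stretch of at least 3 Mb without peaks, as did a cluster of 4 on chromosome 7 from 61967454 to 61983104. That cluster held the peak of rank 3, and its scores were 2.80, 13.6, 3.51 and 2.41, so that 1 peak carried the high score and its neighbours ranked 5428, 2801 and 7512. The clusters of 5 on chromosome 12 (114072821 to 114187812) and chromosome 14 (72666218 to 72895554) were made of low-ranking peaks. Their scores ran from 2.26 to 2.47 and from 2.20 to 2.50, and the spans held 3 and 4 AKBA peaks.

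Seen from the AKBA list, the peaks fell into 1423 of the 7247 intervals between neighbouring AKBA peaks that were wide enough to hold one (19.6%). A single peak lay in 1139 of these intervals and 2 to 5 peaks in 284, which together held 654 of the 1800 (36.3%). The intervals with such a peak had a median length of 244 kb, against 116 kb for all that were wide enough. Longer intervals hold more sequence beyond the distance limit, so part of this difference follows from the choice. Intervals with 5 peaks were found on chromosome 2 (92030414 to 95523018), chromosome 10 (103057720 to 103530254) and chromosome 5 (146614522 to 147924448). The peak scores reached 6.20, 4.96 and 3.75 in these 3 intervals.

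The same choice made the other way round sets these peaks beside AKBA peaks under 5000 bp that lie more than 10 kb from any DMSO peak. There were 1800 of 8890 in the DMSO list (20.2%) and 5565 of 13155 in the AKBA list (42.3%, interval 41.5 to 43.2%). Both were narrow for their list, with a median of 333 bp in the DMSO list and 531 bp in the AKBA list, where the narrowest peaks of the lists measure 160 and 214 bp. Both ranked low, with medians at 65.9% of the DMSO list and 64.5% of the AKBA list counted from the top. The share in the top score decile of the own list was 3.33% for the DMSO peaks (interval 2.55 to 4.27%) and 1.96% for the AKBA peaks (1.61 to 2.36%). Peaks of 1 kb or more made up 3.17% of the DMSO peaks and 15.3% of the AKBA peaks. Peaks that overlap the other list were also wider in the AKBA list, with a median of 1565.5 bp against 847 bp in the DMSO list. The AKBA list is the longer one. With only its 8890 highest-scoring peaks, a setting chosen after seeing the data, 27.7% of the DMSO list met the rule. With 1 library per condition, list length and treatment cannot be told apart.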

How the data were processed

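Peaks of 1 H3K27me3 library per condition were analysed. The submitters' processing notes name BWA, STAR, MACS2 and the build hg19, without versions or roles; how the threshold was set, whether input DNA entered the calling and how duplicates were treated are not stated in these sources. The deposited score per peak is the authors' own value, its scale is not stated, and it was used for ranks and filters within a list. Distances count the bases between peak edges, an overlap is at least 1 bp, and positions are 1-based. Tied scores share their mean rank. Python 3.11.15, numpy 2.4.6, pandas 2.3.3, scipy 1.17.1 and matplotlib 3.10.9 were used. All 8890 distances equalled those of bedtools 2.31.1, and all 1317 peaks simulated at set distances were put in the right class. Shares have exact Clopper-Pearson intervals, medians order-statistic binomial intervals and densities exact Poisson intervals, all at 95%.

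The rule for peaks away from AKBA peaks and the summaries were chosen with earlier results of these data known. Regions named are the 10 highest-scoring, 5 widest and 5 farthest peaks, the 5 clusters with most peaks (ties by higher summed score), the 3 chromosomes with the highest and lowest shares, and 3 peaks on each side of the 10 kb limit. Runs, intervals between AKBA peaks and the chromosomes named by density were chosen after their values were seen. Alternatives changed the distance, width, score, merging and joining limits. Gene positions were not analysed here.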

Additional observations from a re-analysis of the deposited data

How the results depend on the processing

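Of 59 values recomputed under other settings, 34 stayed within 1.5 times (number of peaks) or within the 95% interval of the reported value, and 25 did not. Lifting the width limit could change nothing, because no peak without overlap reached it, yet its values are counted among the 34. Over 20 kb from AKBA peaks, the share of the DMSO list was 15.3% and the clustered share 28.0%. Over 50 kb there were 778 peaks, 8.75% of the list, with 19.9% in clusters and 10.5% beside a stretch without peaks. With DMSO scores of at least 3.00, 589 peaks remained, 13.0% of the shorter list, with a median rank at 61.1% of it. Their median width was 195 bp, with 5.26% in the top decile of that list, 13.6% in clusters and 11.2% beside a stretch. The stretches for this setting were drawn anew from the shorter DMSO list and the AKBA list. Merging DMSO peaks within 1 kb gave a share of 22.1%. Joining at 50 and 250 kb put 22.8% and 52.3% in clusters. Stretches of at least 2 Mb gave 14.2%, and a limit of 500 kb to the stretch gave 5.0%. The following settings were chosen after seeing the data. Without DMSO peaks at 160 bp the share of the list was 18.5%, the median rank 68.5% of the list, the median width 397 bp and the clustered share 29.9%. With the 8890 highest-scoring AKBA peaks there were 2460 peaks, a number within the limit of 1.5 times, but the shares moved to 27.7% of the list and 44.6% in clusters. Without the 120 peaks beside a stretch the share of the list was 18.9%. Other DMSO peaks beside a stretch stayed in the list, so this share could only fall, yet it is counted among the 25. No paired analysis was possible because each condition has 1 library. The number and clustering of these peaks thus depend on the limits set, and unknown depth limits every comparison between the lists.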
